A study of Mus musculus with 6 samples.

Results

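The cultures numbered 1 were the control and the irradiated culture that carry the number 1 in the labels, 2 of the 6 samples of the series, and they were compared with the 4 cultures numbered 2 and 3. They were chosen by measured values: the expression levels of these same 6 arrays had been seen to set both arrays numbered 1 apart. Every value that separates them from the other 4 is therefore given as a description, with no test. Expression was measured in primary cultures of cerebral cortex from C57/B6 mouse embryos at embryonic day 16, grown in Neurobasal medium with B27 plus. The 3 control cultures were not irradiated. The 3 irradiated cultures were exposed to 3.1 THz terahertz radiation, which is absorbed by water, during 3 hours of each day in vitro between days 5 and 9. All 6 cultures were harvested on day 12, and 0.2 µg of RNA per culture, carrying the dye Cy3, was read on a separate 1-colour Agilent array. The labels do not say whether a shared number means a shared dissection, litter or day, whether embryos were pooled, or what sex they were. The spread between these samples may therefore be partly technical.

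A dissociated cortical culture holds more than neurons. Astrocytes and oligodendrocyte precursors are carried over from the embryonic cortex and go on dividing and maturing in the dish. Microglia, the resident phagocytes of the brain, depend on signals through the receptor Csf1r and express the complement component C1q. Oligodendrocyte precursors leave their immature state through a committed stage marked by Gpr17, and mature cells switch on the myelin genes. RNA from the whole dish is read as 1 mixture, so fewer cells of a type and less RNA per cell cannot be told apart. Markers of neurons (Snap25, Tubb3, Map2, Rbfox3) were well above background on all 6 arrays.

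Levels are log2 signals relative to the 75th percentile of the gene's own array, so 0 is the level at that percentile. Probes had to be well above background on 3 or more of the 6 arrays, and each gene was read at its brightest probe, which left 26120 genes. Control 1 was the dimmest array, with a 75th percentile of 476 intensity units and 64.9% of spots well above background. The other 5 arrays ranged from 687 to 1291 units and from 69.9% to 74.7% of spots. Control 1 also stood furthest from the other arrays as a whole. Its median absolute difference per gene from them ran from 0.46 to 0.65 (log2), while irradiated 1 differed by 0.25 from irradiated 2 and by 0.50 from control 1. Irradiated 1 differed by 0.35 from irradiated 3, by 0.37 from control 3 and by 0.44 from control 2. Over all genes irradiated 1 was thus nearer to every array of another number than to control 1. The displacement of each array numbered 1 from the other 2 arrays of its own group is given separately. Whether the dimness of control 1 plays a part in the differences was not tested. All 6 arrays were on 1 slide and came from 1 scan.

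The displacements of the 2 arrays numbered 1 went together across genes, with a Pearson correlation of 0.53 over the 26120 genes. Genes are not independent replicates, and each displacement was taken from arrays of 1 group only. Control 1 was 2-fold or more away from controls 2 and 3 at 4987 genes, and irradiated 1 from irradiated 2 and 3 at 1883 genes. Both were displaced 2-fold or more in the same direction at 1252 genes, which is 25.1% of the first set and 66.5% of the second. Of these, 793 were higher and 459 lower, while 28 genes were displaced 2-fold or more in opposite directions. The correlation was 0.53 after quantile normalisation and in the table of log2 values that the authors deposited.

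**Figure D1:**
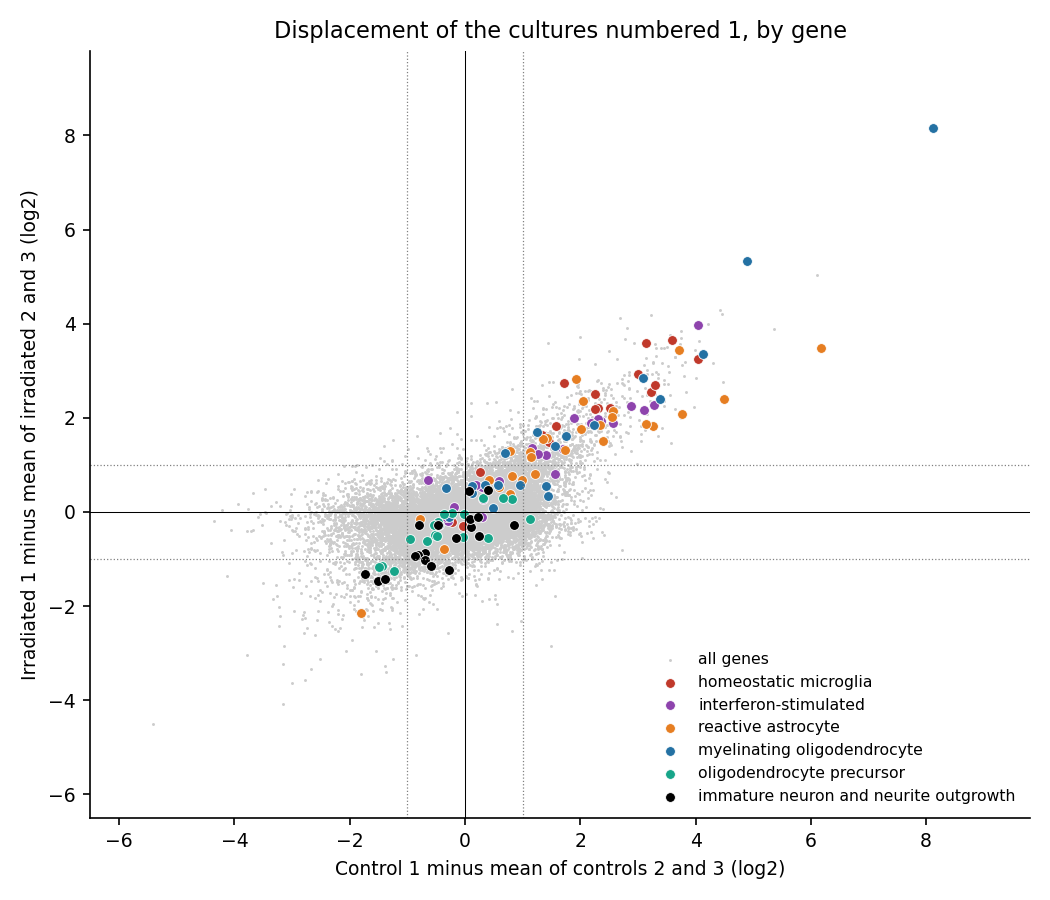
Each point is 1 gene; the horizontal axis is control 1 minus the mean of controls 2 and 3 and the vertical axis irradiated 1 minus the mean of irradiated 2 and 3, both in log2, and dotted lines mark 2-fold. Many microglial, interferon-stimulated, reactive astrocyte and myelin genes lie in the upper right, where both cultures numbered 1 were higher, and Mobp is the point above 8 on both axes.

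A gene was counted as apart when the mean of both displacements was at least 2-fold and both arrays numbered 1 lay above, or both below, all 4 others. This held for 1915 genes, 7.33% of those measured, with 1109 higher (4.25%) and 806 lower (3.09%). The background filter can be passed on the 4 other arrays alone, but not on the 2 arrays numbered 1 alone. Of the lower genes, 136 were not well above background on either array numbered 1, so their 2-fold difference is not a measured one. For the higher genes the matching count, with none of the 4 others well above background, was 0. Without the 2-fold limit the arrays did not overlap at 8222 genes (31.5%), 3416 of them higher (13.1%) and 4806 lower (18.4%). Plxnb2 and Dph6 lay just inside the limit and Myo1d and Znrf2 just outside it, all within 0.01 of a log2 difference of 1 in either direction. Leaving out control 1, so that irradiated 1 alone stood against the others, gave 1846 genes. Leaving out irradiated 1, so that control 1 alone stood against them, gave 4940 genes.

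The higher genes were larger in displacement and better annotated than the lower ones. At least 4-fold differences were found at 241 higher and 70 lower genes, and at least 8-fold differences at 59 and 7. A gene name, as opposed to a clone or transcript identifier, was present for 87.0% of the higher genes, 50.1% of the lower genes and 62.9% of all genes. The lower genes were also dim, with a median level of -3.29 against -1.85 for the higher genes and -0.79 for all genes. Of the lower genes, 458 were well above background on all 6 arrays, as were 958 of the higher genes. With a different background correction (normexp), which added 50 units to every signal, 648 genes were higher and 189 lower. On a dim signal such an addition narrows the log2 difference. Median signals of the arrays ran from 35.6 units (control 1) to 109 (irradiated 2). On the quantile-normalised values 1133 were higher and 770 lower, and the deposited table gave the same 2 counts. Of the higher genes above, 98.9% also met the count in the deposited table, as did 92.6% of the lower genes.

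The named genes that were displaced furthest upward in both groups included Mobp, F13a1, Mal, Pf4, Stab1, Ano1, Oas1a, Ctla2a, Wfdc17, Alox5, Arhgap45, Laptm5, Ctla2b and Ly86. The order rests partly on dim signal: Mobp, F13a1, Ano1, Oas1a, Ctla2a, Wfdc17, Alox5, Arhgap45 and Ctla2b missed the background flag on 1 or more of the other 4 arrays. With normexp the differences of F13a1, Ano1 and Ctla2a went from 5.57, 4.10 and 4.62 to 2.45, 1.80 and 2.10. Mobp and Mal encode proteins of the myelin sheath. F13a1, Pf4, Stab1, Wfdc17, Alox5, Laptm5 and Ly86 are known from microglia, macrophages or blood cells, and Oas1a is an antiviral enzyme induced by interferon. Ctla2a and Ctla2b are near-identical neighbours, so signal from one may be read on the probe of the other. Stab1 reached 1.34 in control 1 and 1.41 in irradiated 1, but only -3.44 to -2.42 in the other 4 cultures. Pf4 had levels of 0.96 and 1.08 in the cultures numbered 1 and between -3.88 and -2.72 on the others. For both genes the 2 arrays numbered 1 lay close together and far above the other 4: the cultures numbered 1 were 20.1-fold higher for Stab1 (4.33 ± 0.29 log2, SE of the fit over 6 arrays) and 20.5-fold higher for Pf4 (4.36 ± 0.35). With normexp these differences were smaller, 3.56 and 3.42.

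The 15 named genes displaced furthest downward were Xpnpep2, Slc38a5, Tmem114, Serpind1, Rasl10a, Glt8d2, Robo3, Klhl35, Sec14l3, Atp2c2, Gsta2, Bpifb3, Angptl4, Ghsr and Adamts17. The 15 genes share no single cell type among the lists used here. With normexp several fell short of 2-fold, among them Xpnpep2 (-0.37), Serpind1 (-0.35), Atp2c2 (-0.63) and Ghsr (-0.47). Slc38a5, a glutamine transporter (probe on chromosome X, 7857226 to 7857285 in build mm9), stood at -3.91 and -4.26 on control 1 and irradiated 1. On controls 2 and 3 and irradiated 2 and 3 it stood at -0.55, -0.95, -0.90 and -1.17. Its 2 groups of arrays did not overlap, and the difference was -3.19 ± 0.20 (-1.88 with normexp). Tmem114 had levels of -2.64 and -3.55 in the cultures numbered 1 and between -0.09 and 0.73 on the others, a difference of -3.32 ± 0.29 (-2.49 with normexp). Rasl10a, a small Ras-like GTPase, stood at -0.81 and -1.0 against 1.39 to 2.15 (-2.61 ± 0.26). Robo3, a receptor that guides commissural axons, stood at -2.09 and -1.35 against 0.13 to 1.40 (-2.55 ± 0.42), while a second Robo3 probe differed by 0.15. Angptl4, a secreted inhibitor of lipoprotein lipase, stood at -0.07 and -0.41 against 1.55 to 2.27, 4.63-fold lower (-2.21 ± 0.25). Xpnpep2, Serpind1, Glt8d2 and Bpifb3 were not well above background on either array numbered 1. For them only bounds can be given, at least 2.51-fold, 2.70-fold, 3.13-fold and 2.43-fold lower, taking as the dim level on an array either the probe's own signal or the faintest signal that still passed the background flag there, whichever was higher.

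Microglial genes were among the most displaced. Each list count from here on stands beside the share over all genes that met the count, 4.25% higher and 3.09% lower. Of 18 measured genes of homeostatic microglia, 14 were at least 2-fold higher in the cultures numbered 1 with no overlap, none was lower, and the median difference was 2.25, against -0.03 over all genes. Control 1 and irradiated 1 gave nearly the same median displacement, 2.26 and 2.21. Cx3cr1, the fractalkine receptor of microglia (probe on chromosome 9, 119957811 to 119957870), stood at 1.87, -1.08 and -1.46 on controls 1 to 3. On irradiated 1 to 3 it stood at 2.49, -0.67 and -1.54. Both arrays numbered 1 were the highest, the difference was 3.37 ± 0.30 (10.3-fold), and a second Cx3cr1 probe gave 3.34. Csf1r, the receptor for the growth factors that microglia need to survive, stood at 2.29 and 2.39 against 0.24 to 1.0 (1.71 ± 0.27), although its other probe differed by only 0.20. Tmem119, a microglial membrane protein, stood at -1.08 and -1.61 against -4.13 to -2.69 (2.27 ± 0.41), and P2ry12, the purinergic receptor of resting microglia, at -3.49 and -3.22 against -5.04 to -4.56 (1.47 ± 0.19). With normexp the difference was 1.5 for Tmem119 and 0.74, short of 2-fold, for P2ry12, and the list median was 1.55. All 4 markers were higher on both arrays numbered 1.

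The signalling adaptors Fcer1g and Tyrobp were 12.5-fold and 7.96-fold higher, the receptor Trem2 7.85-fold and the membrane protein Laptm5 12.3-fold. Aif1, the calcium-binding protein used to stain microglia, was 4.69-fold higher. Siglech and Itgam were exceptions: at their brightest probes they differed by -0.17 and -0.22. The summed linear levels of the 18 measured microglial genes, with these 2 included, overlapped. They were 84.6 on control 1 and 78.3 on irradiated 1, against 47.9 to 81.4 on the others. In the list of phagocyte and complement genes, 12 of 19 were at least 2-fold higher without overlap, with a median difference of 1.78. The 3 C1q chains C1qa, C1qb and C1qc were 10.8-fold, 6.50-fold and 11.1-fold higher. C1qc had levels of 2.95 and 2.77 in the cultures numbered 1 and between -1.15 and -0.25 on the others. The lysosomal protease Ctss was 9.98-fold higher, lysozyme (Lyz2) 8.84-fold, and the phagocyte marker Cd68 3.38-fold.

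The requirement of 3 arrays well above background removed genes that were detected on the 2 arrays numbered 1 alone. Without that requirement, 62 of 37005 genes were well above background on both arrays numbered 1 and on none of the other 4, and 32 named ones had a bound of at least 2-fold. For comparison, 35 genes were detected on both arrays numbered 2 alone and 90 on both arrays numbered 3 alone. Mrc1, the mannose receptor of macrophages, led with at least 18.5-fold, followed by the chemokine Ccl12 with at least 8.12-fold and the complement receptor C5ar1 with at least 8.08-fold. The Fc receptor Fcgr1 (at least 7.44-fold), the microglial receptor Gpr34 (at least 6.6-fold), the purinergic receptor P2ry13 (at least 3.55-fold), the oligodendrocyte protein Opalin (at least 4.67-fold) and the interferon-induced Ifit1 (at least 3.5-fold) had the same pattern. In the other direction 122 genes were well above background on all 4 other arrays and on neither array numbered 1, but only 8 named ones had a bound of at least 2-fold. The cation channel gene Trpa1 (at least 3.60-fold lower) and the bombesin-like receptor gene Brs3 (at least 3.38-fold lower) led these. These genes were read out after their detection was seen.

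Chemokines and cytokines did not move as 1 group. Of 14 measured genes, 5 were at least 2-fold higher without overlap and 1 lower, with a median difference of 0.51. Ccl3 and Ccl4, which activated microglia secrete, were 4.14-fold and 5.96-fold higher, and Ccl9 5.70-fold (1.47, 1.48 and 1.58 in log2 with normexp). Tnf was -0.57 in control 1 and -2.11 in irradiated 1, against -1.86 to -1.09 on the other arrays, so its arrays overlapped. Cxcl10, a chemokine that interferon induces, was the lower one: it stood at -3.88, -1.66 and -2.48 on controls 1 to 3 and at -3.72, -0.73 and -2.42 on irradiated 1 to 3. Both arrays numbered 1 were below the rest (-1.98 ± 0.49, and -1.05 with normexp).

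Interferon-stimulated genes were higher, whereas Cxcl10 was lower. Of 23 measured, 14 were at least 2-fold higher without overlap, none lower, with a median difference of 1.26 (1.41 in control 1 and 1.24 in irradiated 1). The upstream sequence of 4 of these genes is shown, because the element that interferon-activated factors read, the interferon-stimulated response element, lies close to the start site of many of them. The 250 bases before the RefSeq start (build GRCm38.p6) are given 5′ to 3′ on the gene's strand, with capitals marking each match to the core of that element, GAAA followed by any 2 bases and GAAA again, on either strand; overlapping matches run together.
Oas1a, chr5:120907526-120907775, minus strand: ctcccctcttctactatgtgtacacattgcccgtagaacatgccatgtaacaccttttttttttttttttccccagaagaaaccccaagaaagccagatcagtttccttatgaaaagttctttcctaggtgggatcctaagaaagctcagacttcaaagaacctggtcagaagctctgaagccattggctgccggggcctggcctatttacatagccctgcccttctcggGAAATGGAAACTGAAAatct
Isg15, chr4:156200819-156201068, minus strand: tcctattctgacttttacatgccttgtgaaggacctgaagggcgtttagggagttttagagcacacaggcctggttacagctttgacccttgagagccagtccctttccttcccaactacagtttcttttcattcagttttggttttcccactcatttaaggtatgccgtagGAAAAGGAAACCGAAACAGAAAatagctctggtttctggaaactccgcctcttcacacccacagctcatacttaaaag
Ifit3, chr19:34583279-34583528, plus strand: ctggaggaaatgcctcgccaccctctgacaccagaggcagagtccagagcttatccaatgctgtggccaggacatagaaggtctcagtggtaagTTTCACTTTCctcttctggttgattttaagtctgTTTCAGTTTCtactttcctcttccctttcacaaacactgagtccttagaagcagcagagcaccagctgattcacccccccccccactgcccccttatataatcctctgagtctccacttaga
Rsad2, chr12:26456453-26456702, minus strand: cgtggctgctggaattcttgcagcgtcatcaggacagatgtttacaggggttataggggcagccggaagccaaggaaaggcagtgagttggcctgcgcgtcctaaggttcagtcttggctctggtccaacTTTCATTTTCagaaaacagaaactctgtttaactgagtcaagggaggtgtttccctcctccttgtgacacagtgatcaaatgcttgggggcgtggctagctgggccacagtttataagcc

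Oas1a, a synthetase that starts RNA decay in virus-infected cells, stood at -1.63, -5.48 and -5.85 on controls 1 to 3. On irradiated 1 to 3 it stood at -1.71, -5.29 and -6.06, but only 1 of the other 4 arrays was well above background, so the gap is not a measured fold. With normexp correction its difference was 1.93. Ifit3, which binds foreign RNA, stood at -0.71 and -1.28 against -3.98 to -2.45 (2.15 ± 0.50). Rsad2, an antiviral radical enzyme, stood at -2.30 and -2.63 against -4.89 to -4.45 (2.22 ± 0.21), and Isg15, a ubiquitin-like modifier, at -0.05 and -0.45 against -1.97 to -0.99 (1.31 ± 0.32). All 4 genes separated the arrays by number, with values on the arrays numbered 2 and 3 that lay below both arrays numbered 1. The transcription factor Irf7, the membrane proteins Ifitm3 and Bst2, the protease Usp18 and the transporter chaperone Rtp4 were 5.94-fold, 6.84-fold, 4.11-fold, 6.2-fold and 3.86-fold higher. With normexp Irf7, Usp18, Ifit3 and Rsad2 differed by 1.85, 1.15, 1.51 and 1.14.

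The core of 2 GAAA words was found upstream of 11 of the 20 interferon-stimulated genes with an entry (55.0%), among them Ifit1, Stat2, Trim30a, Gbp2, Gbp3 and Igtp besides the 4 printed and Bst2. It was found in 3.46% of all 27025 upstream windows, in 5.86% of the 785 higher genes with an entry and in 2.18% of the 413 lower genes. The word GAGGAAGT, which the microglial factor PU.1 can bind, was found in 2.79%, 4.46% and 1.45% of the same 3 sets, and in none of 15 microglial genes. The word TGACGTCA, the cAMP response element, was found in 1.77%, 1.53% and 1.69%, and ACGTGC, the core of the hypoxia response element, in 5.63%, 4.97% and 5.81%. TGAGTCA, which AP-1 binds, was found in 5.16%, 6.37% and 5.08%, and ATTGGCTG, a CCAAT box, in 4.12%, 4.84% and 5.57%. TTTGAA, the cell cycle homology region, was found in 4934 of all windows, 134 of the higher and 65 of the lower genes, and ACAAAG, a SOX word, in 18.6%, 18.7% and 14.8%. Longer words of NF-kB, serum response factor and nuclear factor I were found in at most 0.127% of any of the 3 sets. All words were searched on both strands. These are counts of letters in a window, not of bound sites.

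The genes of antigen presentation on MHC class I, which interferon also induces, were higher in smaller steps. Of 14, 7 were at least 2-fold higher without overlap and none lower (median difference 1.01). The summed linear levels of the 14 genes overlapped, with 127 on control 1 and 136 on irradiated 1 against 106 to 144 on the others. The immunoproteasome subunit Psmb8 was 4.86-fold higher, and the heavy chains H2-K1 and H2-D1 3.34-fold and 2.27-fold, although signal may be shared among the closely related genes of this family. B2m, the light chain, stood at 4.15 and 4.03 against 3.11 to 3.31, 1.82-fold higher and so short of the limit. The peptide transporter gene Tap2 was 2.30-fold higher, while Tap1 differed by 0.38 with overlapping arrays and by -0.02 when its probes were averaged.

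Reactive astrocyte genes were the list with the largest count, 19 of 28 at least 2-fold higher without overlap and 1 lower (Cxcl10), with a median difference of 1.51. Lcn2, a secreted iron-carrier protein of reactive astrocytes (probe on chromosome 2, 32240199 to 32240258), stood at 8.21, 2.52 and 1.56 on controls 1 to 3 and at 6.64, 4.12 and 2.20 on irradiated 1 to 3. The arrays numbered 1 were the highest in both groups, but irradiated 2 lay between them and the rest, and the difference was 4.83 ± 0.76. C3, the central complement component, stood at 4.11 and 3.73 against 0.25 to 2.41 (2.93 ± 0.52), again with irradiated 2 the highest of the others. Serpina3n, a protease inhibitor, was 4.27-fold higher, Timp1, an inhibitor of metalloproteases, 5.81-fold, the sphingosine receptor S1pr3 5.12-fold, and the intermediate filament protein Vim 2.82-fold. Psmb8 and H2-T23 of this list are also in the antigen presentation list.

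Genes of astrocytes in general were higher by less. Of 21, 7 were at least 2-fold higher without overlap and none lower, and 20 had a positive difference (median 0.91). Gfap, the astrocyte filament protein, had levels of 5.21 and 5.53 in the cultures numbered 1 and between 3.78 and 4.55 on the others (1.16 ± 0.25, 2.24-fold). Aqp4, the water channel, was 2.72-fold higher, Aldh1l1, a folate enzyme, 5.42-fold, and Gjb6, a gap junction protein, 5.90-fold. The glutamate transporters Slc1a3 and Slc1a2 were 1.91-fold and 1.62-fold higher without overlap, short of the 2-fold limit. Genes of cell division, which glia express in such cultures, were also higher: 11 of 30 at least 2-fold without overlap and none lower, 29 with a positive difference (median 0.94). Top2a, the topoisomerase of dividing cells, stood at 1.0 and 1.04 against -0.39 to 0.03 (2.32-fold), and Mki67 and Cdk1 were 2.24-fold and 2.5-fold higher.

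The oligodendrocyte lineage was split by stage. Of 22 measured genes of myelinating cells, 9 were at least 2-fold higher without overlap and none lower (median 0.93, with 1.10 in control 1 and 0.57 in irradiated 1). Of 18 precursor genes, none was higher by that rule and 3 were lower (median -0.32). Mobp (probe on chromosome 9, 120085150 to 120085209) stood at 1.86, -7.48 and -5.05 on controls 1 to 3 and at 1.86, -7.25 and -5.35 on irradiated 1 to 3, where the 2 arrays numbered 2 were not well above background. A second Mobp probe, well above background on all 6 arrays, differed by 4.02. Mal stood at 1.18, -3.82 and -3.59 on controls 1 to 3 and at 1.31, -4.16 and -3.89 on irradiated 1 to 3 (5.11 ± 0.20, 34.5-fold). With normexp the differences were 5.08 for Mobp and 3.91 for Mal. For both genes the arrays numbered 1 lay close together and far above the rest.

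Mag, an adhesion molecule of the innermost myelin layer, stood at 3.99, -0.77 and 0.49 on controls 1 to 3 and at 3.08, -0.91 and 0.38 on irradiated 1 to 3. Here the arrays numbered 1 were highest (3.74 ± 0.49), the arrays numbered 3 followed and those numbered 2 were lowest, and a second, dimmer Mag probe differed by -0.04. The iron carrier Trf, the transcription factor Nkx6-2 and the tight junction protein Cldn11 were 7.45-fold, 4.13-fold and 2.79-fold higher. Mbp depended on the probe: its brightest differed by 0.26 with overlapping arrays, and 2 others by 1.63 and 1.86.

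Among precursor genes, Gpr17, the receptor of committed precursors, had levels of 5.39 and 5.24 in the cultures numbered 1 and between 6.43 and 6.63 on the others (-1.24 ± 0.17, 2.36-fold lower). The sialidase gene Neu4 and the transcription factor Sox8 were 2.46-fold and 2.51-fold lower. Pdgfra, the receptor that keeps precursors dividing, was 1.42-fold lower without overlap, and the lineage factors Olig1 and Olig2 were 1.27-fold and 1.09-fold lower, Olig2 with overlap. Cspg4 went the other way by 0.49 at its brightest probe, where only control 1 stood out (2.5 against 1.01 to 1.55), and by -0.04 averaged over its probes.

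**Figure D2:**
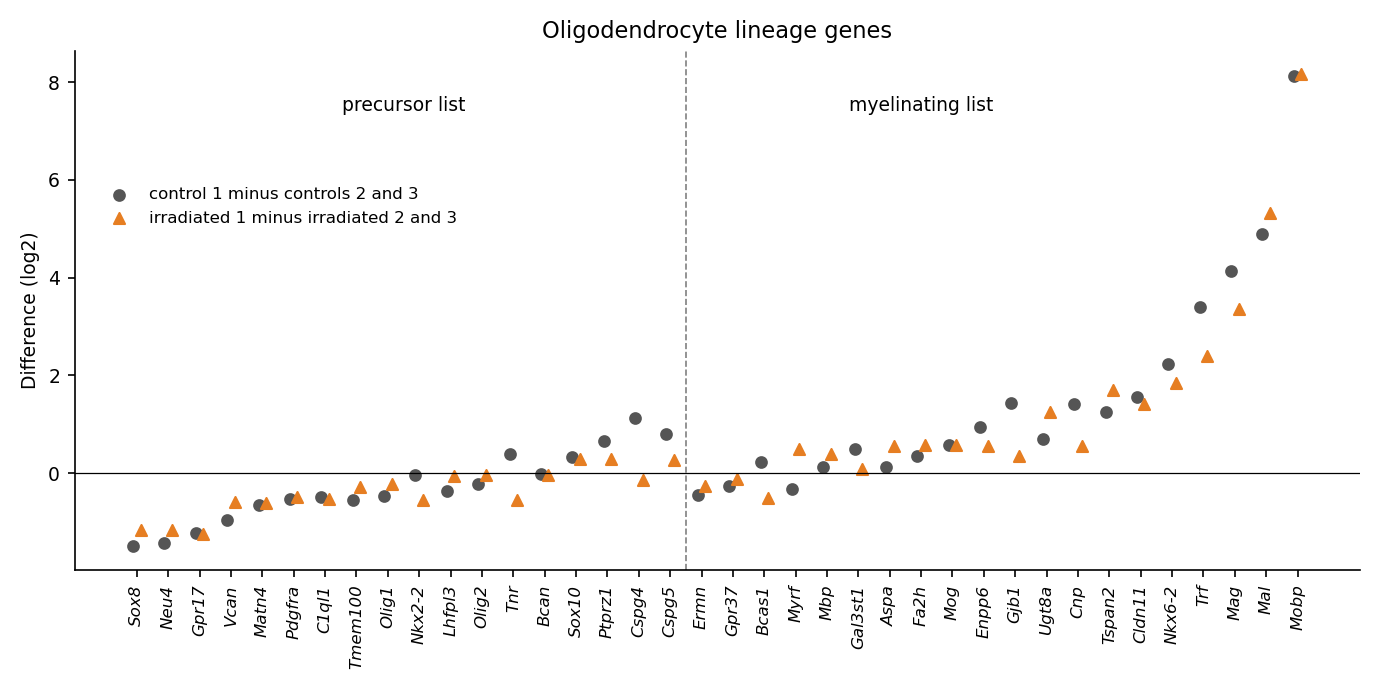
Each gene shown from the precursor list (left of the dashed line) or the myelinating list (right) has 2 points, the displacement of control 1 (circles) and of irradiated 1 (triangles) from the other 2 arrays of the same group, in log2. Mobp, Mal, Mag and Trf are the highest on the right, and Sox8, Neu4 and Gpr17 the lowest on the left.

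Neurons as a class were not displaced by 2-fold. None of 20 pan-neuronal genes met the count in either direction (median -0.19), none of 26 postsynaptic genes (median -0.18), and 1 of 24 presynaptic genes, the active zone protein gene Erc2, was 2.13-fold lower (median -0.12). Over all genes 4.25% were higher and 3.09% lower by the same count, so these small counts do not set the lists apart. Among defining genes, Map2 was 1.39-fold lower without overlap, while Snap25, Tubb3 and Rbfox3 differed by -0.27, 0.28 and -0.10 with overlapping arrays. The median displacement of the pan-neuronal genes was -0.06 in control 1 and -0.45 in irradiated 1, so the small difference came mostly from irradiated 1.

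Genes of immature neurons were lower. Of 19 measured, 3 were at least 2-fold lower without overlap, none higher, and 10 lay below all other arrays (median -0.54, -0.47 in control 1 and -0.56 in irradiated 1). Over all genes 3.09% were at least 2-fold lower without overlap and 18.4% lay below all other arrays. Dcx, a microtubule protein of migrating neurons, had levels of 0.57 and 0.69 in the cultures numbered 1 and between 1.93 and 2.24 on the others (-1.49 ± 0.18, 2.82-fold lower). Its 3 dimmer probes differed by -0.32 to -1.17. Dpysl5, a regulator of growth cones, and Nrep were 2.64-fold and 2.88-fold lower. Gap43 and Stmn2, which growing axons use, were 1.73-fold and 1.83-fold lower without overlap. Of 18 measured genes of excitatory cortical neurons, 2 were at least 2-fold lower without overlap and none was higher. The median of that list was only -0.15, 6 of its genes had a positive difference, and 2 lay above all other arrays against 7 below. Among its members Neurod1 and Neurod2, factors of differentiating excitatory neurons, were 2.91-fold and 2.01-fold lower. The glutamate transporter Slc17a7 of mature excitatory neurons was 1.35-fold lower without overlap. Of 12 hippocampal markers, 4 were lower (Dsp, Lct, Prox1 and Neurod1; median -0.47), and Neurod1 and Prox1 also stand in the lists of excitatory and inhibitory neurons.

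Markers of inhibitory neurons did not move as 1 group, with a list median of -0.05. Of 23 measured, 2 were at least 2-fold higher without overlap and 3 lower, beside 4.25% and 3.09% over all genes. Most members did not meet the count, and 11 of the 23 had a positive difference. Pvalb, the calcium buffer of fast-spiking interneurons, had levels of 5.92 and 4.68 in the cultures numbered 1 and between 3.02 and 3.40 on the others (4.30-fold higher), and the peptide gene Vip was 2.30-fold higher. Calb2, the calcium buffer of another subtype, stood at -1.56 and -1.19 against 0.32 to 0.84 (3.70-fold lower). Prox1 and Maf, transcription factors of interneuron subtypes, were 2.56-fold and 2.04-fold lower, though a dimmer Maf probe differed by 0.06. Gad1, Gad2 and Slc32a1, which make and load GABA in all inhibitory neurons, differed by 0.48, -0.05 and 0.26. Of these 3 only Gad1 had no overlap. Among 13 striatal markers 3 were higher and 2 lower: the adenosine receptor gene Adora2a was 5.09-fold higher (1.53 in log2 with normexp) and the peptide gene Penk 2.10-fold, while the peptide genes Pdyn and Tac1 were 2.32-fold and 2.06-fold lower.

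Immediate early genes, among them genes that neurons induce within minutes of firing, were higher. RNA of the whole dish does not show which cells expressed them or whether firing differed. Of 24 immediate early genes, 7 were at least 2-fold higher without overlap and none lower (median 0.59, 0.72 in control 1 and 0.64 in irradiated 1). Fosb stood at 0.21, -2.55 and -2.75 on controls 1 to 3 and at -1.03, -3.44 and -2.66 on irradiated 1 to 3 (2.44 ± 0.30, 5.44-fold). Nr4a1, a nuclear receptor, stood at 4.27, 1.46 and 2.79 in controls and 3.82, 1.44 and 2.74 in irradiated cultures (3.82-fold), so the arrays numbered 3 lay between the others as they did for Mag. The phosphatase Dusp1, the transcription factors Fos and Npas4 and the synaptic protein Arc were 3.21-fold, 2.98-fold, 2.70-fold and 2.79-fold higher. Egr1 differed by 0.54 with overlapping arrays. Of 19 genes induced later, 2 were higher and 3 lower by the same count, while 15 had a positive difference (median 0.53, 0.53 in control 1 and 0.29 in irradiated 1). Bdnf and Vgf were 1.66-fold and 1.65-fold higher without overlap, and the activin subunit gene Inhba was 2.04-fold lower.

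**Figure D3:**
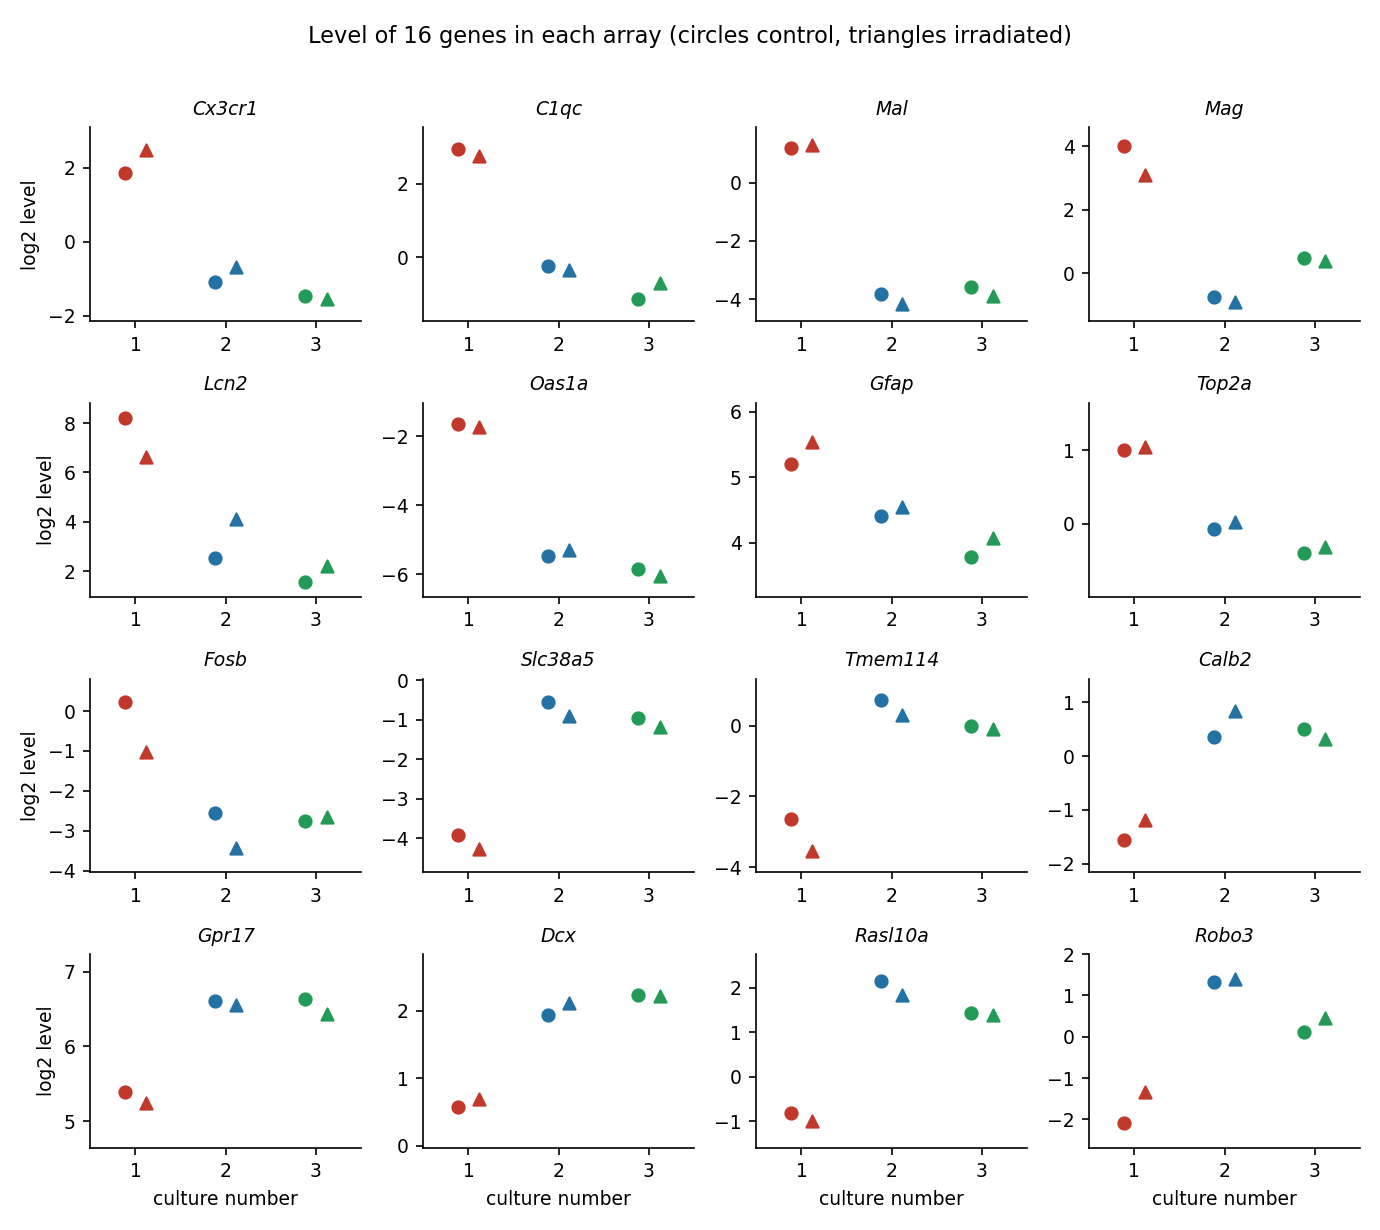
Each panel shows 1 gene, with the culture number on the horizontal axis and the log2 level on the vertical axis, whose range differs between panels; circles are control and triangles irradiated cultures. In the first 9 genes (Cx3cr1 to Fosb) both arrays numbered 1 are the highest, and in the last 7 (Slc38a5 to Robo3) both are the lowest.

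Markers of other cells that a cortical dissection can bring along differed by list. Of 13 measured endothelial and pericyte genes, 4 were at least 2-fold higher, all of them pericyte or mural markers (Kcnj8, Pdgfrb, Rgs5 and Anpep), while the endothelial Pecam1 and Kdr differed by 0.14 and -0.09 and Cldn5 did not pass the background flag on a single array. The list median was 0.67, with 1.02 in control 1 and 0.32 in irradiated 1 (0.35 without control 3), and with normexp Kcnj8 and Anpep fell short of 2-fold (0.46 and 0.90). Of 21 fibroblast and meningeal genes, 4 were higher and 1, Lum, lower (median 0.41, and 0.11 without control 3), with the collagens Col1a1, Col1a2 and Col3a1 at 0.30, 0.21 and -0.35 and overlapping arrays. These 2 lists were also higher on the arrays numbered 2 than on those numbered 3 (medians of 2 minus 3 of 0.60 and 0.82). None of 10 choroid plexus genes and none of 5 measured blood cell genes met the count in either direction. The sum of the linear levels of the measured genes was 5.12 to 9.41 on the arrays numbered 1 and 3.89 to 5.82 on the others for the endothelial and pericyte list, and 64.5 to 79.5 against 34.9 to 46.8 for the fibroblast list. Their part in the differences above was not tested.

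Most metabolic and stress lists had medians near that of all genes, with glycolysis and the hypoxia response as the exception. No gene of 32 cytosolic ribosomal proteins, 31 subunits of oxidative phosphorylation, 23 of cholesterol synthesis, 23 of the unfolded protein response or 16 of the circadian clock met the count, and their medians ranged from -0.22 to 0.12. Of 18 heat shock genes only the small chaperone Hspb1 did (2.88-fold higher), and Hspa1a and Dnajb1 differed by 0.17 and 0.14. Of 22 genes of glycolysis and the hypoxia response 3 were higher, Adm, Ankrd37 and Vegfa, 3.64-fold, 2.98-fold and 2.02-fold, and 21 had a positive difference (median 0.50, 0.66 in control 1 and 0.25 in irradiated 1). Only control 1 stood apart for the list as a whole. The list median of level minus the gene's mean was 0.58 on control 1 and 0.02 on irradiated 1, against -0.36 to 0.03 on the others. The detoxifying enzyme gene Nqo1 was 2.15-fold higher, the metallothionein Mt2 1.92-fold. Among 22 p53 targets and apoptosis genes, Casp8 was 3.88-fold higher and Apaf1 2.12-fold lower, both short of 2-fold with normexp (0.93 and -0.56). Over all genes 4.25% met the count upward and 3.09% downward, so 1 gene in lists of 18 or 22 is near that share.

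**Figure D4:**
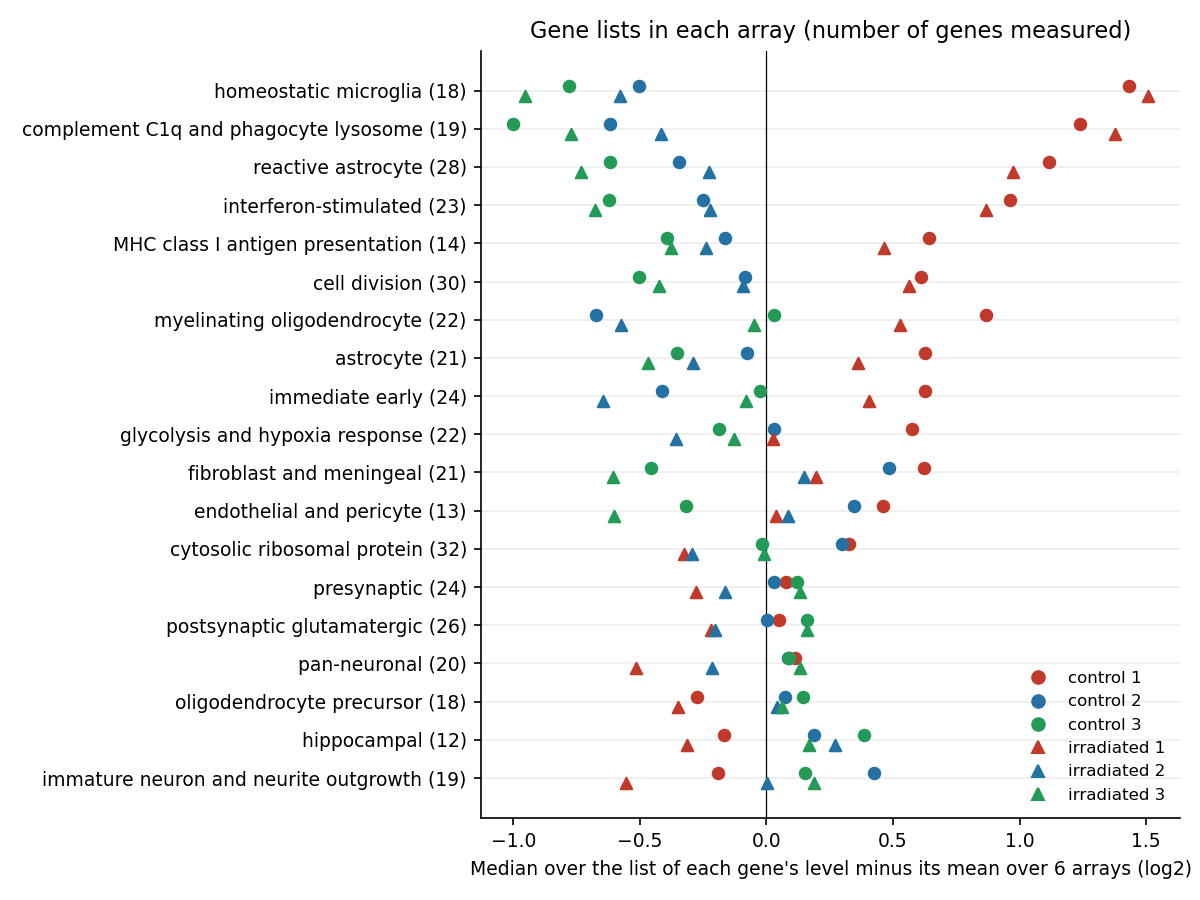
For each list the horizontal axis gives the median over its genes of the level minus the gene's mean over the 6 arrays, in log2, with 1 symbol per array (circles control, triangles irradiated, colour by number) and the number of genes measured in brackets. From the top row, homeostatic microglia, down to immediate early genes the arrays numbered 1 lie to the right of all others, and to the left for precursors, hippocampal markers and immature neurons; for synaptic, pan-neuronal and ribosomal genes they do not stand together.

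The order of the remaining arrays was read from the difference between the cultures numbered 2 and 3, which the choice of the cultures numbered 1 did not use. Among the 1109 higher genes, 745 (67.2%) were higher in number 2 than in number 3, with a median of 0.21, against 50.5% of all genes and 50.1% of the lower genes. For 14 of 18 microglial, 20 of 23 interferon-stimulated and 23 of 28 reactive astrocyte genes number 2 lay above number 3. The myelinating genes and the immediate early genes ran the other way, with number 2 above number 3 for only 5 of 22 and 5 of 24, and medians of 2 minus 3 of -0.53 and -0.31. The 2 sets that were both higher in number 1 thus differed in their order over numbers 2 and 3. In the test of number 2 against number 3 (limma, 2 arrays each) no gene passed at an adjusted p under 0.05. An unadjusted p under 0.05 from limma was found at 1024 genes (3.92%). The arrays numbered 1 also entered this fit, so its residual spread included the difference between irradiated 1 and control 1. The SD across genes of irradiated minus control was 0.86 for number 1, 0.48 for number 2 and 0.36 for number 3. Leaving out either array numbered 1 changed the number of genes past the threshold. How far that spread set the result of this test was not tested.

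The noncoding RNA Xist, which silences 1 X chromosome in female cells, had the smallest adjusted p in that test at its 2 probes. The Xist probe (chromosome X, 100662174 to 100662233) stood at -2.46, -7.51 and -0.95 on controls 1 to 3 and at -2.07, -8.34 and -1.37 on irradiated 1 to 3. A second probe in the same region, which the array design names XIST (100655839 to 100655898), stood at 1.1, -6.03 and 2.85 on controls 1 to 3 and at 2.20, -6.36 and 2.54 on irradiated 1 to 3. At both probes the arrays numbered 2 were the 2 lowest and were not well above background, whether control or irradiated. For the Xist probe the arrays numbered 3 were at least 22.7-fold higher than those numbered 2 and the arrays numbered 1 at least 10.5-fold higher. The adjusted p from limma was 0.083 for both probes. For the Xist probe it was 0.0489 in the deposited table, 0.0498 after quantile normalisation, 0.000876 with median scaling, 0.553 with normexp correction and 0.242 with no filter on dim probes, and 0.00137 to 0.806 when 1 array was left out (0.806 without control 3).

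The Y-linked genes Ddx3y, Kdm5d, Eif2s3y and Uty were well above background on all 6 arrays at their brightest probes. Ddx3y stood at -3.21, -2.40 and -2.62 on controls 1 to 3 and at -2.73, -2.12 and -2.81 on irradiated 1 to 3. Eif2s3y stood at -0.64, 0.72 and -0.06 on controls 1 to 3 and at 0.24, 0.87 and -0.20 on irradiated 1 to 3, highest on both arrays numbered 2. Uty was also highest there, at -0.93 and -0.92 against -3.50 to -1.49. Kdm5d did not follow that order at its brightest probe: it stood at -1.08, -0.32 and -0.04 on controls 1 to 3 and at -0.44, -0.41 and -0.50 on irradiated 1 to 3. A dimmer Kdm5d probe, well above background on all 6 arrays, was highest on both arrays numbered 2, at -1.11 and -1.0 against -2.04 to -1.75. Another such probe stood at -3.63 and -3.52 against -4.88 to -3.85. A Kdm5d probe well above background on only 2 arrays did not follow the order. Ddx3y, Eif2s3y and Uty were thus highest, and Xist lowest, on both arrays numbered 2, and none of the 4 Y-linked genes passed the test of 2 minus 3 (adjusted p = 1.0 for each, limma).

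**Figure D5:**
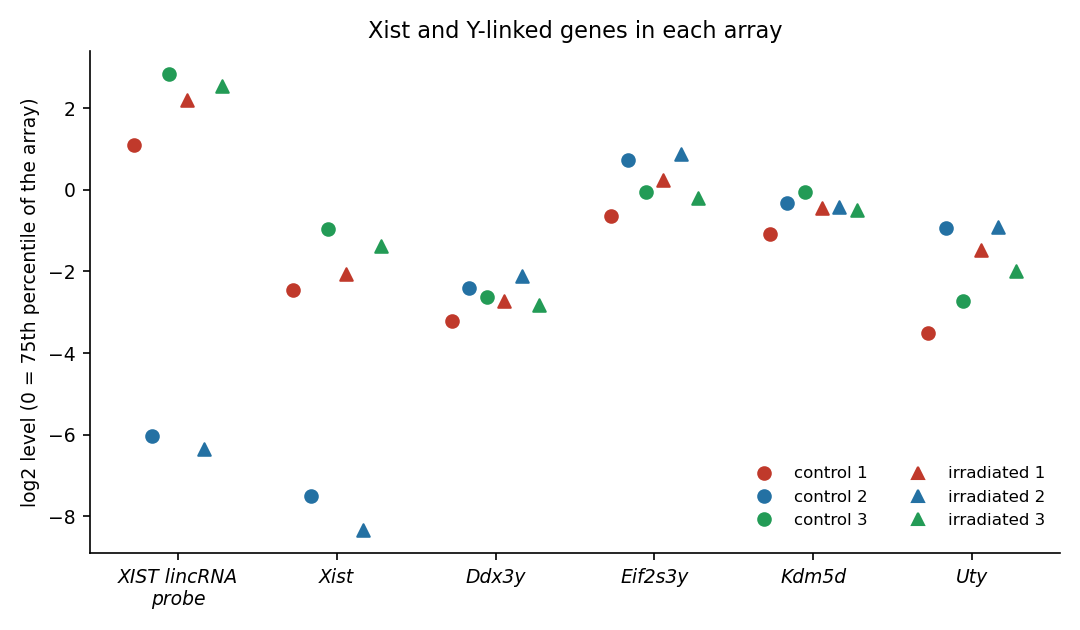
The vertical axis is the log2 level relative to the 75th percentile of the array, with 1 symbol per array (circles control, triangles irradiated, colour by culture number) for both Xist probes and 4 Y-linked genes. Both arrays numbered 2 lie below -6 at each Xist probe, and the same arrays are the highest for Ddx3y, Eif2s3y and Uty.

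Whether the displacement of number 1 differed between the groups was tested as the interaction of number 1 with irradiation. With limma and Benjamini-Hochberg adjustment over the 26120 genes, none passed at an adjusted p under 0.05 (smallest 0.286), and 2789 (10.7%) had an unadjusted p under 0.05. Among the genes apart, 66 of 1109 higher and 157 of 806 lower ones had an unadjusted p under 0.05. The interaction is estimated with 1 array per group numbered 1, and leaving out control 3 gave 294 genes past the threshold. For Lcn2, displaced by 6.17 in control 1 and 3.48 in irradiated 1, the adjusted p from limma was 0.468. The count depended on the scaling: over all 6 arrays 66 genes passed with median scaling and 4 with normexp.

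With number 1 in the model, irradiated minus control passed an adjusted p under 0.05 at no gene, and 3731 (14.3%) had an unadjusted p under 0.05. Without the number in the model the unadjusted count was 2395 (9.17%), and with the culture number as a replicate block 2361 (9.04%), also with none past the adjusted threshold in either. Over the higher genes the median of irradiated minus control was -0.12, and over all genes -0.13. Homeostatic microglia had a median of 0.14 for irradiated minus control beside 2.25 for number 1 minus the others, and myelinating genes -0.13 beside 0.93.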

How the data were processed

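Scanner intensity values were deposited by the authors for 6 arrays and, per the file headers and the submitters' processing notes, had been background-subtracted and detrended by Agilent Feature Extraction 10.7.1.1. A second table deposited by the authors holds log2 values, and its columns share 1 distribution (median 5.9); its ranks followed the scanner values (rank correlation 0.997 for control 1, 1 for the others). The log2 processed signal minus its 75th percentile was used here, without control spots and outlier flags. Of 56605 probes, 40552 were well above background on at least 3 of 6 arrays. Gene names came from RefSeq by accession (32988 probes), symbol (10220) or synonym (520), and otherwise from the array files (12867). Probe positions are those of mm9 in the files.

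The members and the 36 gene lists were chosen with earlier results of these data known. Genes were named when they were among the 15 furthest apart in each direction by the smaller of both within-group displacements, were the first 4 of a list, or were among up to 6 members of a list past the 2-fold count and up to 4 in the opposite direction; others were named after their values were seen, and some genes that the rule names are not reported here. The interaction, number 2 minus number 3 and irradiated minus control were tested two-sided with linear models and moderated variances in limma 3.58.1 (R 4.3.3), adjusted over all genes by Benjamini-Hochberg, checked on simulated data. Tables and plots used Python 3.11.15, pandas 2.3.3, numpy 2.4.6 and matplotlib 3.10.9. The numbers were taken to pair the samples. Deviations of same-numbered arrays from their group means correlated at 0.534, 0.417 and 0.219 for numbers 1, 2 and 3. The first value is the correlation of displacements given above. Deviations within a group cancel out, so that shared displacement also enters the values for numbers 2 and 3. These correlations therefore cannot show a pairing. Control 2 was nearer irradiated 3 (median absolute difference 0.24) than irradiated 2 (0.30), while control 3 was nearest irradiated 3 (0.15). The number of arrays limits the precision. Alternatives were quantile normalization, the deposited table, normexp with an offset of 50, median scaling, other filters, the mean of a gene's probes, a 1.5-fold limit and leaving out each array.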

Additional observations from a re-analysis of the deposited data

How the results depend on the processing

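The 1915 genes apart (1109 higher, 806 lower) became 837 (648 and 189) with normexp and 4436 (2156 and 2280) at 1.5-fold; probes well above background on all 6 arrays left 458 lower genes. Leaving out 1 array gave 1846 to 4940 genes, 1040 to 2318 higher and 793 to 2622 lower, with the upper values without irradiated 1. Genes past the interaction threshold numbered 0 as reported, 4 with normexp, 66 with median scaling and 0 to 294 with 1 array left out (294 without control 3); without either array numbered 1 the interaction could not be fitted. For number 2 minus number 3 the count of 0 became 1 after quantile normalization and in the deposited table (Xist), 2 with the mean of the probes and 3 with median scaling, and 0 to 3 with 1 array left out. Irradiated minus control stayed at 0 in all 16 alternatives, with the replicate block (0) among them, which changed no call. The cause of these shifts was not tested.

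Among 272 genes and 36 list medians, 10 values changed sign. With the mean of the probes these were Tap1 (-0.022), Cspg4 (-0.044), Dlg4 (-0.088) and Trp53inp1 (0.105). With 1 array left out, Cspg4 ranged from -0.14 to 1.126, Dlg4 from -0.016 to 0.593, Kdm5d from -0.903 to 0.015, Sox2 from -0.029 to 0.474, Hmox1 from -0.049 to 0.681 and the inhibitory neuron median from -0.071 to 0.07, each changing sign without control 1 or irradiated 1. Signal close to background limits the lower genes most.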
